A study of Mus musculus with 2 samples.

Results

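Aminoacyl-tRNA synthetases are the enzymes that join each amino acid to its tRNA, the step that lets a ribosome read the genetic code. Mammalian cells keep a cytosolic set and a mitochondrial set, both encoded in the nucleus, and 8 of the cytosolic enzymes analysed here are held together with scaffold proteins in the multisynthetase complex. An early embryo translates maternal mRNA before its own genome is active, so the transcripts present at the one-cell stage are largely those laid down in the oocyte. The genes were chosen by symbol: cytosolic names such as Lars, mitochondrial names ending in 2 such as Lars2, the alpha and beta subunits of the phenylalanine enzyme, Eprs, Tarsl2 and the scaffold genes Aimp1 and Aimp2. Of the 11262 genes analysed, 33 matched. They are 20 cytosolic enzyme genes, 11 mitochondrial enzyme genes and 2 scaffold genes. Tarsl2 ends in 2 but was placed with the cytosolic genes, and Gars and Kars, each of which serves both compartments, were also placed there. Other genes of the family were not analysed here.

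The question was which transcripts differ between the second polar body (PB2), the microcell that leaves the egg at the end of meiosis, and the zygote it came from. Untreated embryos, C57BL/6 in the labels and C57BL/6N in the study's methods, were cultured in KSOM medium to the late one-cell stage, the zona pellucida was dissolved with acid Tyrode's solution, and PB2 was detached with trypsin and pipetting. Both libraries were made from pooled material by full-length cDNA amplification of polyadenylated RNA, with 1 library of PB2 and 1 of zygotes. There are no replicates, so no test was run, no p-value is given, and every difference describes these 2 libraries alone. Levels are in TPM, a transcript abundance that is scaled for gene length and library total. TPM gives shares of the RNA of each library, so fewer transcripts per cell and a smaller cell cannot be told apart. How many reads lie behind a value is unknown, so counting error has no interval here.

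The genes analysed covered 89.8% of the PB2 library by TPM and 92.7% of the zygote library. All 12 oocyte markers of a hand-written list were measured, at 99.5 to 10496 TPM in PB2 and 62.7 to 22562 TPM in the zygote. Of 12 cumulus and granulosa cell markers 3 were measured (Cyp19a1, Fshr and Star), and they summed to 75.6 TPM in PB2, against 74.7 TPM in the zygote, nearly all of it Cyp19a1, and none was at 0. Of 6 sperm markers 2 were measured (Prm2 and Akap4), summing to 22.6 and 20.8 TPM, and neither was at 0. The part of such cells in the results was not tested.

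Each gene's log2 ratio is log2((PB2 TPM + 1)/(zygote TPM + 1)). It is positive where PB2 is higher, and the added 1 understates the change of low genes. Genes with at least 1 TPM in either library were compared, 10645 in all, and 29 of the 33 members were among them. The other 4 were near the floor in both libraries. Vars stood at 0.6 TPM in the zygote and at 0.7 TPM in PB2, Tarsl2 had 0.9 and 0.7 TPM, Iars2 had 0.6 and 0.9 TPM, and Mars2 had 0.6 and 0.5 TPM. Sars2 and Tars2 entered only through PB2.

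Most synthetase transcripts differed little between PB2 and the zygote. Lars2 and Hars, 2 of the 29 members compared, were past 2-fold towards PB2, against 18.9% of all genes compared. Rars2, 1 of the 29, was past 2-fold towards the zygote, against 8.09% of all genes. The median log2 ratio of the members was -0.12, and that of all genes compared was 0.21. Centring all log2 ratios on 0 by that shift left Lars2 and Hars past 2-fold towards PB2, against 13.0% of all genes, and put 3 members past it towards the zygote, Cars2, Lars and Rars2, against 12.1%.

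Lars2, the mitochondrial leucine enzyme, stood apart from the rest of the family. It stood at 174.9 TPM in the zygote and at 1352.3 TPM in PB2, a ratio of 7.73 and a log2 ratio of 2.94. In PB2 it was higher than every other synthetase gene measured, and of the 11262 genes it ranked 765 in the zygote and 80 in PB2. Of all genes compared, 11 had a larger log2 ratio. Lars2 (ENSMUSG00000035202) lies on the plus strand of chromosome 9 of GRCm38, from 123366927 to 123462666, and no other gene of GENCODE M21 overlaps it. Of the 31-base stretches of its longest coding transcript, 1.09% also occurred in annotated transcripts of other genes. Sequence outside the annotated transcripts, rRNA repeats and other genomic repeats included, was not searched, so whether reads of rRNA were counted to Lars2 was not tested. The Lars2 level and every sum and share that holds it carry that limit.

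Rars2, the mitochondrial arginine enzyme, differed the other way. It stood at 22.0 TPM in the zygote and at 4.4 TPM in PB2. The zygote value was 5.0 times the PB2 value, and the rounding of the table to 1 decimal allows 4.93 to 5.07. Its log2 ratio was -2.09, and 58 of the genes compared had a lower one. Rars2 (ENSMUSG00000028292) lies on the plus strand of chromosome 4, from 34614957 to 34660167, shares no 31-base stretch with another gene's transcripts, and is overlapped by none.

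Hars, the cytosolic histidine enzyme, stood at 14.4 TPM in the zygote and at 50.2 TPM in PB2, a ratio of 3.49 and a log2 ratio of 1.73, with 481 genes above it. Hars overlaps Hars2, the mitochondrial histidine gene, on the opposite strand of chromosome 18, and 8.42% of its 31-base stretches also occur in Hars2 transcripts. Whether reads were counted by strand is not given in the sources used here, so part of the Hars signal cannot be told apart from Hars2.

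The plot of levels by group shows these 3 genes as the longest spans between the libraries among genes above 10 TPM in either one.

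**Figure D1:**
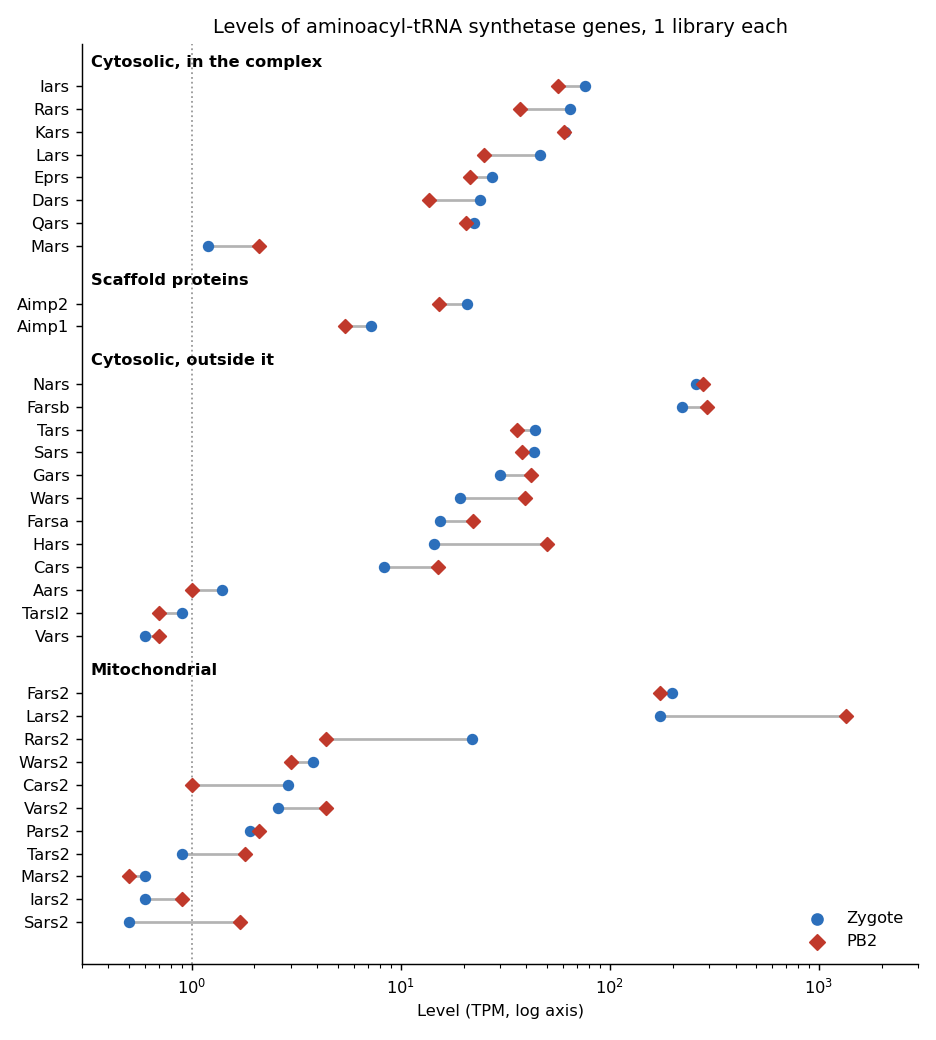
Level of each of the 33 genes in TPM on a log axis, with a circle for the zygote library and a diamond for the PB2 library, joined by a line. The dotted line marks 1 TPM. Lars2 runs from 174.9 to 1352.3 TPM, Rars2 runs from 22.0 down to 4.4 TPM, and most other pairs of points lie close together.

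The DNA just upstream of these opposite genes is shown because Lars2 and Rars2 mark the ends of the family's range. The sequences are the 250 bases before the RefSeq start site on GRCm38.p6, read 5′ to 3′ on the plus strand. Capitals mark GGGCGG, the GC box bound by Sp1-type factors, on either strand.
Lars2, chr9:123366677-123366926: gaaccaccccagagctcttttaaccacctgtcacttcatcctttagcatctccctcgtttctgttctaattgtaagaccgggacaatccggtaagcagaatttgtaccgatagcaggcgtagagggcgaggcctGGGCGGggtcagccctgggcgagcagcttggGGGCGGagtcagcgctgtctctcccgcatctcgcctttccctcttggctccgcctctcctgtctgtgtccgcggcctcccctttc
Rars2, chr4:34614707-34614956: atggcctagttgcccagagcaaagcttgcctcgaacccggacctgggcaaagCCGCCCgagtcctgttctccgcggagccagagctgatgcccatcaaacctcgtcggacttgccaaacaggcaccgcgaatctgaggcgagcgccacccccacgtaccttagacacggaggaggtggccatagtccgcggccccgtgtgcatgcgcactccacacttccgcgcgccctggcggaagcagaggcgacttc
Both upstream stretches are rich in G and C, at 59.2% for Lars2 and 64.8% for Rars2, and both hold the GC box, as do 32.7% of all 32851 promoters of the table. The letters of these stretches describe the genes and say nothing of where their RNA lies in the embryo.

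A promoter was found for 25 of the 33 members, 13 cytosolic, 10 mitochondrial and 2 scaffold genes, and 6 short motifs were searched on both strands of the 250 bases. None of these motifs contains another. TGATGNAA, the core of the amino acid response element through which ATF4 acts on many synthetase genes, was found at Aars, Gars and Tars and at 3.45% of all promoters. The log2 ratios of these genes were -0.26, 0.48 and -0.27, so none was past 2-fold. Of the 26 promoters found for members, 18 had the bases after their RefSeq start in a GENCODE transcript. The Aars stretch lies before its RefSeq start but inside the gene as annotated in GENCODE M21, which starts at 111033144. The Tars stretch reaches a few bases into its GENCODE gene. The 60-base stretches of Aars, Gars and Tars are shown with the element in capitals, each on the strand of its gene.
Aars, chr8:111033704-111033763, plus strand: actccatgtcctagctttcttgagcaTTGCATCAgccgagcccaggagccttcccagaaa
Gars, chr6:55037941-55038000, plus strand: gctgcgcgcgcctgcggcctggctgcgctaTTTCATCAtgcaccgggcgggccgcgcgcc
Tars, chr15:11399659-11399718, minus strand: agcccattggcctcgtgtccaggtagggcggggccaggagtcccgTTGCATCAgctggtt
The GC box was found at 16 members, 8 of them mitochondrial. CCGGAAG, the core bound by ETS factors, was found at 9 members and at 6.91% of all promoters. CCAAT was found at 12 members and 33.8% of promoters, CACGTG at 3 and 6.02%, and TATAAA at 2 and 12.4%.

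The cytosolic and mitochondrial genes had nearly the same median log2 ratio. It was -0.06 for the 18 cytosolic genes compared and 0.10 for the 9 mitochondrial ones, a difference of 0.16. The direction depended on low genes. Over genes with at least 5 TPM in either library the medians were -0.06 and -0.19, a difference of -0.13. The only mitochondrial genes left there were Lars2, Fars2 and Rars2, so -0.19 was the value of Fars2 alone. Sars2 and Tars2, which entered only through PB2, were among the genes dropped. Over all genes compared the ranges of the sets overlapped, from -0.86 to 1.73 in the cytosolic set and from -2.09 to 2.94 in the mitochondrial set. The mitochondrial range was the wider because Lars2 and Rars2, at its ends, are both mitochondrial. Without Lars2, an alternative chosen after its value was seen, the mitochondrial median was -0.05. Neither side could be tested, since genes are not replicates of a library.

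The sets differed more in level than in ratio. The median of the cytosolic genes compared was 28.8 TPM in the zygote, against 36.7 TPM in PB2, and that of the mitochondrial genes was 2.9 and 3.0 TPM. Of the 11 mitochondrial genes only Fars2 and Lars2 passed 100 TPM in either library. Mitochondrial genes nevertheless made up 29.4% of the TPM of the enzyme genes analysed in the zygote and 59.5% in PB2. The 31 enzyme genes summed to 1389.9 TPM in the zygote and to 2598.1 TPM in PB2. Family genes that were not analysed, mitochondrial ones among them, are in none of these sums and shares. Lars2 alone made up 12.6% and 52.0% of the sums. With Lars2 left out the sums were 1215.0 and 1245.8 TPM, and the mitochondrial share was 19.3% in the zygote and 15.5% in PB2. The difference in the share between the libraries therefore turned direction without this gene.

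The most abundant enzymes carried most of the TPM of the enzyme genes analysed. In the zygote the top genes were Nars, the asparagine enzyme, with 259.1 TPM, Farsb with 221.0 TPM, Fars2 with 198.1 TPM and Lars2. These 4 genes held 61.4% of the synthetase TPM there, and the same genes held 80.7% in PB2. Nars had 278.2 TPM in PB2 and a log2 ratio of 0.10. Fars2, the single-chain mitochondrial phenylalanine enzyme, had 173.3 TPM in PB2 and a log2 ratio of -0.19. Iars, the isoleucine enzyme and next in the zygote, had 75.9 TPM there and 56.4 TPM in PB2. Kars, the lysine enzyme, was next in PB2, at 60.8 TPM there and 61.3 TPM in the zygote.

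The phenylalanine enzyme of the cytosol is built from equal numbers of alpha and beta chains, encoded by Farsa and Farsb. Their transcripts were far from equal. Farsa stood at 15.4 TPM in the zygote and at 22.1 TPM in PB2, and Farsb had 221.0 and 291.6 TPM. Farsb was thus 14.4 times Farsa in the zygote and 13.2 times in PB2, and the log2 ratios of the subunits, 0.49 and 0.40, were close to each other. With the trend of all log2 ratios on GC content removed they lay on either side of 0, at -0.29 for Farsa and 0.39 for Farsb. Farsb overlaps Sgpp2, and 11.0% of the stretches of its transcript that were searched also occur in Sgpp2 transcripts. Farsa shares no such stretch with another gene. Part of the Farsb signal therefore cannot be told apart from Sgpp2, and every Farsb level and ratio given here carries that limit.

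Genes of the multisynthetase complex were mostly lower in PB2. The complex joins 8 of the enzymes measured with the scaffold proteins Aimp1 and Aimp2. Of these 10 genes, 9 had a lower TPM in PB2 than in the zygote, against 40.0% of all genes compared, and none was past 2-fold in either direction. The median log2 ratio of the 10 genes was -0.39. Kars was counted as lower though nearly level, at 61.3 TPM in the zygote and at 60.8 TPM in PB2. Lars, the cytosolic leucine enzyme, stood at 46.2 TPM in the zygote and at 25.0 TPM in PB2, a log2 ratio of -0.86. Rars, the arginine enzyme, had 64.8 and 37.2 TPM, a log2 ratio of -0.78. Dars, the aspartate enzyme, had 23.9 and 13.7 TPM, a log2 ratio of -0.76. These 3 genes had the lowest log2 ratios of the cytosolic set. Whether they were past 2-fold depended on the setting. With the trend of the log2 ratio on transcript length removed, Lars had -1.21, Rars -1.04 and Dars -1.02, all past 2-fold towards the zygote, against 11.7% of all genes there and 12.1% towards PB2. With centring Lars was past it, at -1.07.

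The other 7 of these 10 genes lay nearer to 0. Eprs, which charges both glutamate and proline tRNAs from a single chain, stood at 27.5 TPM in the zygote and at 21.4 TPM in PB2. Qars, the glutamine enzyme, had 22.4 and 20.6 TPM. Iars had 75.9 and 56.4 TPM, a log2 ratio of -0.42, and Kars had a log2 ratio of -0.01. The scaffold gene Aimp2 had 20.7 and 15.2 TPM, and Aimp1 had 7.2 and 5.4 TPM, with log2 ratios of -0.42 and -0.36. Mars, the methionine enzyme, was the exception, at 1.2 TPM in the zygote and at 2.1 TPM in PB2. Eef1e1, which encodes the remaining scaffold protein of the complex and was left out by the choice of symbols, stood at 259.1 TPM in the zygote and at 127.3 TPM in PB2, a log2 ratio of -1.02. Aimp2 overlaps Eif2ak1 on the opposite strand, with 39.7% of its 31-base stretches shared, so its value is uncertain.

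The cytosolic enzymes outside the complex had a median log2 ratio of 0.44 over 10 genes compared, and 7 of them had a higher TPM in PB2, against 59.2% of all genes. Wars, the tryptophan enzyme, stood at 19.3 TPM in the zygote and at 39.4 TPM in PB2. Its plain ratio was 2.04, and its log2 ratio with the added 1 was 0.99, just short of 2-fold. Cars, the cysteine enzyme, had 8.3 and 15.1 TPM, and Gars, the glycine enzyme, had 30.0 and 42.2 TPM. Tars, the threonine enzyme, had 44.0 and 36.2 TPM, and Sars, the serine enzyme, had 43.5 and 38.1 TPM. Aars, the alanine enzyme, was low in both libraries, with 1.4 and 1.0 TPM. It overlaps Exosc6, with which it shares 22.7% of its 31-base stretches. The ranges in and outside the complex overlapped, from -0.86 to 0.49 and from -0.27 to 1.73.

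**Figure D2:**
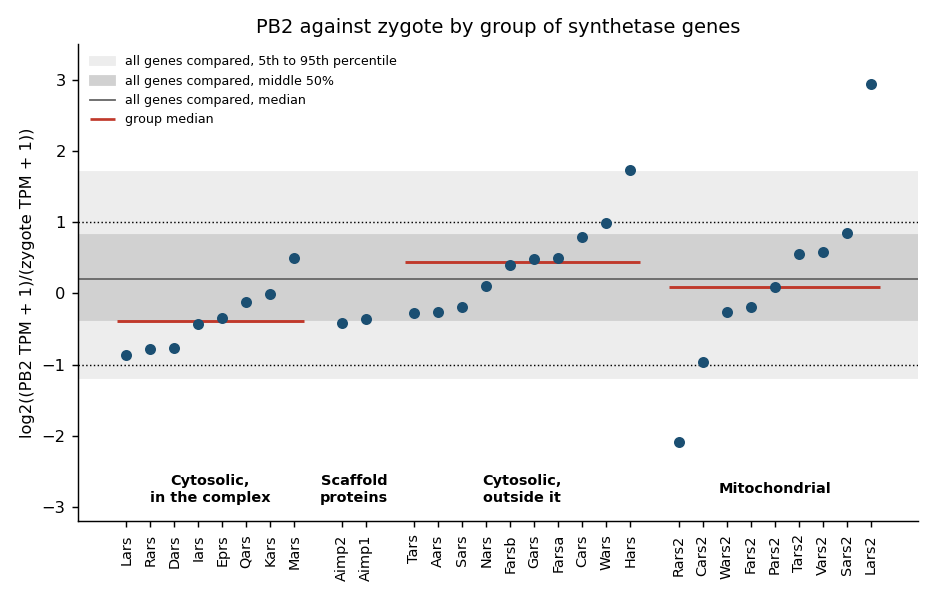
Log2 ratio of each of the 29 genes compared, in 4 groups, with the group median as a line for groups above 2 genes. The grey bands show the middle 50% and the 5th to 95th percentile of all genes compared, and the dotted lines mark 2-fold. Lars2, Rars2 and Hars lie outside the wider band, and 7 of the 8 complex enzymes lie below 0.

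Synthetases belong to a pair of unrelated structural classes, class I with a nucleotide-binding fold of the Rossmann type and class II with an antiparallel fold. The classes did not separate. The median log2 ratio was -0.19 for the 12 class I genes compared and 0.10 for the 14 class II genes, and their ranges overlapped. Both extremes, Lars2 and Rars2, are class I, and Hars is class II. Eprs, which joins an enzyme of each class, was counted in neither.

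Cytosolic and mitochondrial genes for the same amino acid gave 13 pairs over 11 amino acids. Both genes were compared in 9 pairs, over 8 amino acids. Fars2 was paired with both Farsa and Farsb, and Tars2 with both Tars and Tarsl2, so the pairs are not independent. In 5 of the 9 pairs compared the log2 ratios differed by at least 1, in either direction. The leucine pair was farthest apart, with -0.86 for Lars and 2.94 for Lars2, a difference of 3.80. In the serine pair Sars had -0.19 and Sars2 had 0.85, with Sars2 at 0.5 TPM in the zygote and at 1.7 TPM in PB2. In the tryptophan pair Wars had 0.99 and Wars2 had -0.26. Wars2 stood at 3.8 TPM in the zygote and at 3.0 TPM in PB2. Which pairs lay at least 1 apart depended on the setting. With the GC trend removed Sars had -0.69 and Sars2 -0.11, and Wars had 0.44 and Wars2 -0.28, both less than 1 apart. Farsb, at 0.39, and Fars2, at -0.98, were then more than 1 apart.

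Cysteine and arginine differed with the mitochondrial gene the lower. Cars had 0.79 and Cars2 had -0.96, a difference of -1.76. Cars2 stood at 2.9 TPM in the zygote and at 1.0 TPM in PB2, and it shares 19.7% of its 31-base stretches with the overlapping gene Naxd. In the arginine pair both genes were lower in PB2, with -0.78 for Rars and -2.09 for Rars2. Low levels make the cysteine and serine values coarse. Rounding alone allows a plain PB2 to zygote ratio between 3.0 and 3.89 for Sars2.

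In 9 of the 13 pairs the cytosolic gene had the higher TPM in both libraries. The lowest ratio was 1.12 times, for Farsb over Fars2 in the zygote. The highest was 126.5 times, for Iars over Iars2 in the zygote, against 62.7 times in PB2. Iars2 was near the floor, at 0.6 TPM in the zygote and at 0.9 TPM in PB2. Of the transcript stretches searched, 36.8% of those of Iars2 also occur in Rab3gap2 transcripts. For Iars, 17.7% also occur in transcripts of other genes. Every Iars and Iars2 level and ratio given here carries that limit. In 3 pairs the mitochondrial gene was higher in both. Lars2 was above Lars, Fars2 was above Farsa, and Vars2, at 2.6 TPM in the zygote and at 4.4 TPM in PB2, was above Vars. Lars was 0.264 times Lars2 in the zygote and 0.0185 times Lars2 in PB2. The remaining pair, Tarsl2 and Tars2, was level in the zygote at 0.9 TPM. Tars2 had 1.8 TPM in PB2. Pars2, the mitochondrial proline enzyme, had 1.9 and 2.1 TPM.

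**Figure D3:**
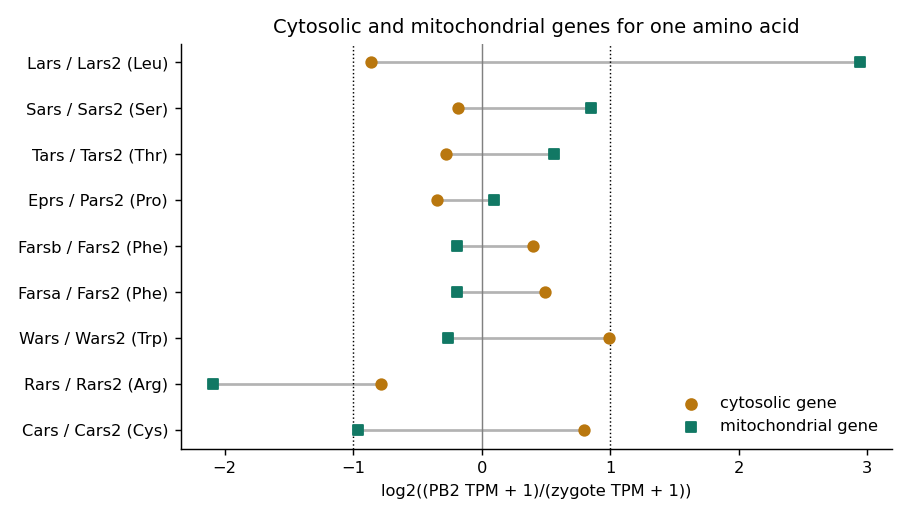
Log2 ratio of the cytosolic gene (circle) and the mitochondrial gene (square) for each of the 9 pairs with both genes compared, with the amino acid in brackets. Dotted lines mark 2-fold. The leucine pair spans from -0.86 to 2.94, with the mitochondrial gene the higher, and the arginine pair from -0.78 to -2.09, with the mitochondrial gene the lower.

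The log2 ratio moved with the GC content of the transcripts in these libraries. Over the 10606 genes whose transcript was found in GENCODE M21, rho (Spearman) was 0.44, and across the 29 members it was 0.43, both over genes of the same 2 libraries. The complex genes had a median GC content of 48.4%, the cytosolic genes outside it 51.7%, and all genes compared 49.1%. Lars2 had 51.2%, Hars 50.4% and Rars2 44.1%. With the trend on GC content removed, Lars2 had a log2 ratio of 2.58, Hars 1.42 and Rars2 -1.98, so all 3 stayed past 2-fold. Cars2 went to -1.70 and Aars to -1.03, both past 2-fold in the zygote. That made 2 members past 2-fold in PB2 and 3 in the zygote, against 9.08% and 11.0% of all genes after the removal. Wars went to 0.44 and Sars2 to -0.11.

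After removal of the GC trend, which also centres the ratios, 10 of 10 complex genes were below 0, against 49.6% of all genes, and their median was -0.53. The median of the cytosolic genes outside the complex was then 0.11. That of the mitochondrial genes was -0.31, as was that of all members compared, so a median below 0 was not particular to the complex. What part GC content has in the differences was not tested.

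**Figure D4:**
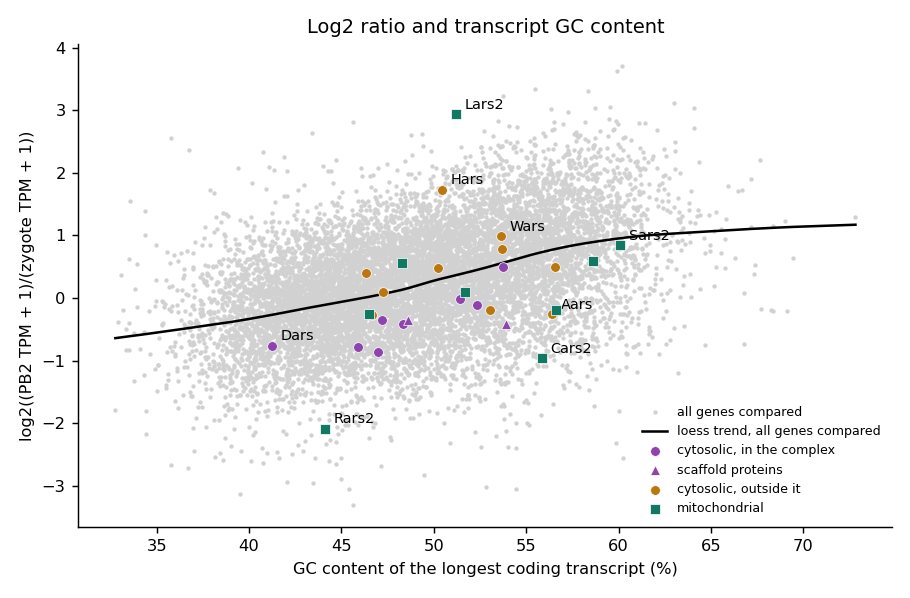
Log2 ratio against the GC content of the longest coding transcript, with all genes compared in grey, their loess trend as a black line, and the members coloured by group. Lars2 lies well above the trend at 51.2% GC, and Rars2 lies below it at 44.1% GC.

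Other steps of tRNA charging were described with hand-written lists, beside 18.9% of all genes past 2-fold in PB2 and 8.09% in the zygote. Genes for selenocysteine, which is made on its tRNA after serine has been attached, were mostly higher in PB2. Of 6 measured and compared, 3 were past 2-fold in PB2 and 0 in the zygote, with a median log2 ratio of 0.99. Eefsec, the factor that carries the charged tRNA to the ribosome, stood at 45.0 TPM in the zygote and at 148.4 TPM in PB2. Sephs2, which makes the selenium donor, had 56.3 and 177.8 TPM. Secisbp2, which reads the selenocysteine signal in the mRNA, had 19.6 and 43.7 TPM. With the GC trend removed only Sephs2 stayed past 2-fold, at 1.21.

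Genes of tRNA maturation and export went both ways. Of 24 listed, 19 were measured and compared, of which 3 were past 2-fold in PB2 and 5 in the zygote, with a median of -0.23. Of those past 2-fold, Tsen34 and Tsen54 passed the 1 TPM filter only through PB2 and Rpp40 only through the zygote. The RNase P and MRP subunits, which cut the leader from precursor tRNAs and process rRNA, made up 9 of them, with 0 past 2-fold in PB2, 4 in the zygote and a median of -0.93. Pop4 stood at 63.3 TPM in the zygote and at 23.0 TPM in PB2, Rpp30 had 63.6 and 23.3 TPM, and Rpp21 had 31.4 and 10.9 TPM. Rpp40 had 1.4 and 0.2 TPM, exactly at the threshold.

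Trnt1, which adds the CCA end to which the amino acid is joined, stood at 184.6 TPM in the zygote and at 77.8 TPM in PB2, a log2 ratio of -1.24. Elac2, which trims that same end of the precursor, had 14.4 and 38.0 TPM, a log2 ratio of 1.34. The tRNA splicing subunits Tsen34 and Tsen54 were low in the zygote, at 0.2 and 0.3 TPM, and had 4.5 and 2.4 TPM in PB2. With the GC trend removed 1 gene of this list, Tsen34, was past 2-fold in PB2 and 5 in the zygote, but not the same 5. Trnt1 (-0.92), Rpp40 (-0.94), Elac2 (0.72) and Tsen54 (0.47) were then within 2-fold, and Pop5 (-1.27) and Pop7 (-1.70) were past it.

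Of 8 genes that sense or answer to uncharged tRNA, 2 were past 2-fold in PB2 and 1 in the zygote. Eif2ak4, the kinase GCN2 that binds uncharged tRNA, stood at 15.6 TPM in the zygote and at 34.5 TPM in PB2, and its partner Gcn1l1 had 1.3 and 4.3 TPM. Eif2s1, the alpha subunit of eIF2 that GCN2 phosphorylates, had 167.8 and 80.3 TPM. Atf4, the transcription factor downstream of it, had 155.1 and 290.1 TPM, a log2 ratio of 0.90. Ppp1r15a (0.75) and Ppp1r15b (0.49) were also short of 2-fold towards PB2. Ddit3, with 58.7 and 30.3 TPM, and Impact, with 7.9 and 4.0 TPM, went the other way, at -0.93 and -0.83. With the GC trend removed 0 genes of this list were past 2-fold in PB2 and 1 in the zygote. That gene was Ddit3, at -1.63, and Eif2s1, at -0.76, was then within 2-fold.

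Gatb, a subunit of the amidotransferase that supplies mitochondria with glutamine tRNA in place of a glutamine synthetase, stood at 2.6 TPM in the zygote and at 7.9 TPM in PB2, and it was the only one of 3 genes in its list past 2-fold. In the proofreading list 1 of 5 genes compared was past 2-fold. It was Ankrd16, a cofactor that guards the alanine enzyme against misplaced serine, which had 1.2 TPM in the zygote and was listed at 0 in PB2, so it was compared only through the zygote. With the GC trend removed Dtd1, a deacylase that clears D-amino acids from tRNA, was also past 2-fold in the zygote, at -1.28. Among 6 elongation factors that take charged tRNA to the ribosome, Eef1g, a subunit of the exchange factor, had 7.4 and 2.2 TPM, and the other 5 were within 2-fold.

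**Figure D5:**
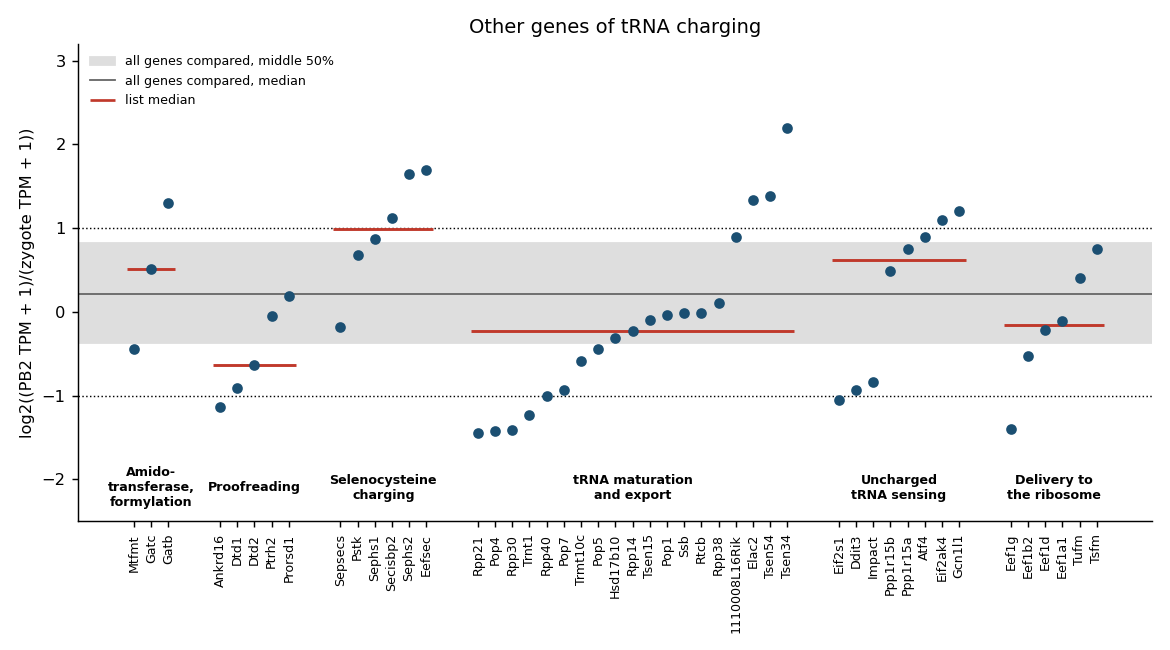
Log2 ratio of each gene compared in 6 hand-written lists of tRNA charging, with the list median as a line, the middle 50% of all genes compared as a grey band and 2-fold as dotted lines. Selenocysteine genes lie mostly above the median of all genes, and the tRNA maturation genes spread from -1.45 to 2.20.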

How the data were processed

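Per the labels, polyadenylated RNA of PB2 and of the zygote was amplified with a single-cell full-length kit. According to the methods and the submitters' processing notes, the authors called bases with CASAVA, aligned reads with HISAT2 2.0.4, counted them with HTSeq 0.6.1p1 and used DESeq2 1.18.1. The notes name the builds GRCm38 and OryCun2.0, a rabbit assembly, while all identifiers are mouse. The authors deposited TPM values rounded to 1 decimal, and how TPM was computed is not given in the sources used here. The PB2 column matched its sample by name, and the one-cell column was taken as the zygote, the only other sample.

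Log2 ratios used a pseudocount of 1 over genes with at least 1 TPM in either library, with a call at 2-fold. GC content and length came from the longest protein-coding transcript in GENCODE M21, matched by identifier for all 33 members and 11221 of 11262 genes. Trends were fitted by loess (span 0.3) and subtracted. Overlaps and 31-base matches used the same annotation. Promoters came from RefSeq on GRCm38.p6. Functions were tested on simulated data. Members and lists were chosen with earlier results of these data known. Named were members past 2-fold, the 5 highest and 3 lowest, pairs at least 1 apart, the scaffold genes and genes of other lists past 2-fold. Others were named after their values were seen. Python 3.11.15, pandas 2.3.3, statsmodels 0.14.6 and matplotlib 3.10.9 were used.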

Additional observations from a re-analysis of the deposited data

How the results depend on the processing

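No paired analysis was possible because each group has 1 library. Depth is unknown, so counting error of genes under a few TPM, most mitochondrial synthetases among them, cannot be given. The medians of the cytosolic, mitochondrial, class I, class II and complex genes moved by at most 0.5 under every alternative run. That margin is larger than each of these medians, so it allows a change of sign. With the GC trend removed the mitochondrial median went from 0.10 to -0.31 and the class II median from 0.10 to -0.30. No result past 2-fold changed its direction. The count of members past 2-fold in PB2, 2, became 4 with a pseudocount of 0.1 or 0.01 (24.7% of all genes). These smaller pseudocounts shrink low values less. The count became 6 at 1.5-fold (34.3% of all genes), 1 at 4-fold (2.48%) and 1 with Lars2 left out. It became 3, with Sars2 added, after rescaling without mitochondrial-genome transcripts and the 50 highest genes (20.4%). The count in the zygote, 1, became 2 with either smaller pseudocount (10.4%), with the zygote scaled to the median of abundant genes (9.22%) and after rescaling that left out mitochondrial-genome transcripts and the 50 highest genes (9.26%), 3 with centring (12.1%) or with the GC trend removed (11.0%), and 5 with the length trend removed (11.7%) or at 1.5-fold (18.2% of all genes). The share of synthetase TPM in mitochondrial names with Lars2 left out was 15.5% in PB2 and 19.3% in the zygote. For the scaling and trend changes the cause was not tested. Centring moved the calls over all genes from 2009 in PB2 and 861 in the zygote to 1387 and 1291, and removal of the GC trend to 963 and 1162. Leaving out Lars2 was chosen after seeing the data.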
